A study of Mus musculus with 24 samples.

Results

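The 34 genes described here are expressed by Kupffer cells, the resident macrophages of the liver, by macrophages that derive from recruited monocytes, or by both. They were chosen by symbol as a list of macrophage genes, and all 34 were found among the 24411 genes counted in 24 mouse liver libraries. Of these, 5 (*Clec4f*, *Timd4*, *Vsig4*, *Marco* and *Cd5l*) were taken as resident markers and 6 (*Ccr2*, *Ly6c2*, *Cx3cr1*, *Gpnmb*, *Trem2* and *Lgals3*) as markers of recruited or lipid-laden phagocytes. The other 23 encode complement C1q (3), receptors and adaptors (9), lysosomal and effector proteins (8) and 3 general macrophage proteins.

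Kupffer cells line the sinusoids, clear particles from blood and express the C-type lectin *Clec4f*, the phosphatidylserine receptor *Timd4* and the complement receptor *Vsig4*. When hepatocytes die, monocytes enter the liver along chemokine gradients read by *Ccr2*, and their progeny clear debris and can take on a program that includes *Trem2*, *Gpnmb* and *Lgals3*. Acetaminophen (APAP) overdose kills hepatocytes around the central veins and is a classic setting in which resident macrophages are partly lost while monocyte-derived cells accumulate.

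The study asked how the ploidy of hepatocytes bears on APAP injury, and deleted *E2f7* and *E2f8*, which encode atypical E2F repressors needed for hepatocyte polyploidy. All mice were males aged 2.5 months that carried floxed *E2f7* and *E2f8* alleles and had been fasted for 16 h. Lifelong knockout (LKO) mice were of a mixed, mostly FVB background with the R26R-mTmG reporter and Alb-Cre, which is active in hepatocytes and biliary cells, and control mice were littermates without Cre. Adult knockout (HKO) mice received AAV8-TBG-Cre, whose promoter is active in hepatocytes, at 2 months, and their controls (NULL) received AAV8-TBG-Null. At 0 h, without APAP, there were 4 control, 4 LKO, 3 NULL and 3 HKO libraries, each from 1 mouse. At 12, 24, 48, 72 and 96 h after 300 mg/kg APAP there was 1 library per genotype for control and LKO, each a pool of RNA from 3 mice. Each time after APAP therefore has no replicate within a genotype, and neither Cre is expected to act in macrophages.

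Libraries held 12665686 to 19499897 reads on genes (median 16500385), so that 3 reads corresponded to 0.154 to 0.237 CPM, the read count scaled to a common library size. The summed level of 8 hepatocyte markers was 54397 to 131242 CPM in every library, against 68.4 to 306 CPM for the 5 resident markers at 0 h. In bulk liver, fewer cells of a type and less RNA per cell cannot be told apart. The count of *E2f8* includes exons outside the deleted part and so checks nothing: it stood at 11.8 to 18.9 CPM in control and 18.0 to 34.1 CPM in LKO mice at 0 h, at 14.8 to 26.3 CPM in NULL and 30.6 to 83.4 CPM in HKO mice, and was higher in the LKO pool at each of the 5 times. The genotype labels could not be checked from these counts and were taken as given. LKO mouse 1 at 0 h stood apart, with 306 CPM of resident markers against 125 to 152 CPM in the other 3 LKO mice.

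RefSeq promoter sequences, 250 bases before to 50 bases after the annotated start on GRCm38.p6, were matched for 28 of the 34 genes. They were searched on both strands for GAGGAAG (a core bound by PU.1, the lineage factor of macrophages), TGAGTCA (AP-1) and CACGTG (an E-box bound by MITF and TFE factors). The PU.1 core was found in any promoter of 10 of the 28 genes, and in 13.63% of 32851 single promoters of the same length. AP-1 was found for 5 genes, against 5.20% of single promoters, and the E-box for 0, against 7.15%. Some genes have several promoters, as *Ly6c2* does, so the gene counts and promoter shares are not in the same unit. A match is a description of letters and not a site of binding. The promoters of 2 resident and 2 recruited or lipid-phagocyte genes are shown because *Clec4f* was lowest at 24 h while the other 3 rose to a peak at 72 h in both genotypes, with the matched motif in capitals and each written 5′ to 3′ along the gene's strand. In *Gpnmb* and *Trem2* the capitals are the reverse complement, since the match is on the other strand. *Gpnmb* (plus strand, chr6:49036268-49036567) holds AP-1, *Trem2* (plus strand, chr17:48346151-48346450) and *Marco* (minus strand, chr1:120504975-120505274) hold the PU.1 core, and *Clec4f* (minus strand, chr6:83656067-83656366) holds none of the 3.
Gpnmb: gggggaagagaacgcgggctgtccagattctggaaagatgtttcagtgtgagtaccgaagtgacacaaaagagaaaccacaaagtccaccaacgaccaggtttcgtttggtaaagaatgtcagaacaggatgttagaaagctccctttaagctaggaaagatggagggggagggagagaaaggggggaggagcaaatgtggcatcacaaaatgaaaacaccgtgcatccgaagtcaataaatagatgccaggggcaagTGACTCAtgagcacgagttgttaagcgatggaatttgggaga
Trem2: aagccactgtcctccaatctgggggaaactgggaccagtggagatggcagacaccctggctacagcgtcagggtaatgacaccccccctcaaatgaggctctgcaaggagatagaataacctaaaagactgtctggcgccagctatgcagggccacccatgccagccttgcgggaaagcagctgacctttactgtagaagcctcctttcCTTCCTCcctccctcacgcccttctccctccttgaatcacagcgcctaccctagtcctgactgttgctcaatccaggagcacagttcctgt
Marco: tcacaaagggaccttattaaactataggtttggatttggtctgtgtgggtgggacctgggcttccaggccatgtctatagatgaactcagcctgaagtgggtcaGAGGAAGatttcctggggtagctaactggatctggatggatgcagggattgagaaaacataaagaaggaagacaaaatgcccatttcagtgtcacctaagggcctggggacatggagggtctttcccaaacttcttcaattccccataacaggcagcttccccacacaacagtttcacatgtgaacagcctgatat
Clec4f: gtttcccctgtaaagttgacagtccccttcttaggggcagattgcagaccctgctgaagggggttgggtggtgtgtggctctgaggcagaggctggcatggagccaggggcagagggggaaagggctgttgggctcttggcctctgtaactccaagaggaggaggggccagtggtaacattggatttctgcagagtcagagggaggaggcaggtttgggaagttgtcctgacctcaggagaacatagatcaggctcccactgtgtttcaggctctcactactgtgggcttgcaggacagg

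After APAP most macrophage genes rose, by 48 h and above all at 72 h. Against the 8 control and LKO mice at 0 h, with genotype in the model, 6 members rose and 4 fell at 12 h of 33 tested. At 24 h 11 rose and 5 fell, and the numbers that rose thereafter were 17, 23 and 4, with none that fell. A gene was called when its fold change was 1.5 or more with an adjusted p under 0.05 (edgeR quasi-likelihood test, Benjamini-Hochberg over 13855 genes). Over all genes tested, the called share was 31.0% (16.7% higher, 14.3% lower) for 12 h, 25.6% (13.9% higher, 11.7% lower) for 24 h, 16.4% (9.89% higher) for 48 h, 16.8% (11.0% higher) for 72 h and 0.462% (0.332% higher) for 96 h. At 12 h the members' share was close to that of all genes. The median log2 fold change of the members was −0.11, 0.05, 1.16, 2.04 and 0.69 at the 5 times in order, while that of all genes was near 0. Each of these tests compares 2 pools with 8 mice and so takes the spread from the 0 h mice and the additive model. Without LKO mouse 1 the calls were 13, 16, 18, 25 and 4, and at 96 h they were 2 without control mouse 1, control mouse 2, LKO mouse 2 or LKO mouse 3. With the LKO pool alone set against the LKO mice fewer members were called at every time, and fewer genes in all as well. The same held for the control pool alone at 24 and 96 h. In such fits the 1 pool has no spread of its own. With only genes of 10 or more counts in each library the calls were 6, 10, 9, 13 and 1.

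**Figure D1:**
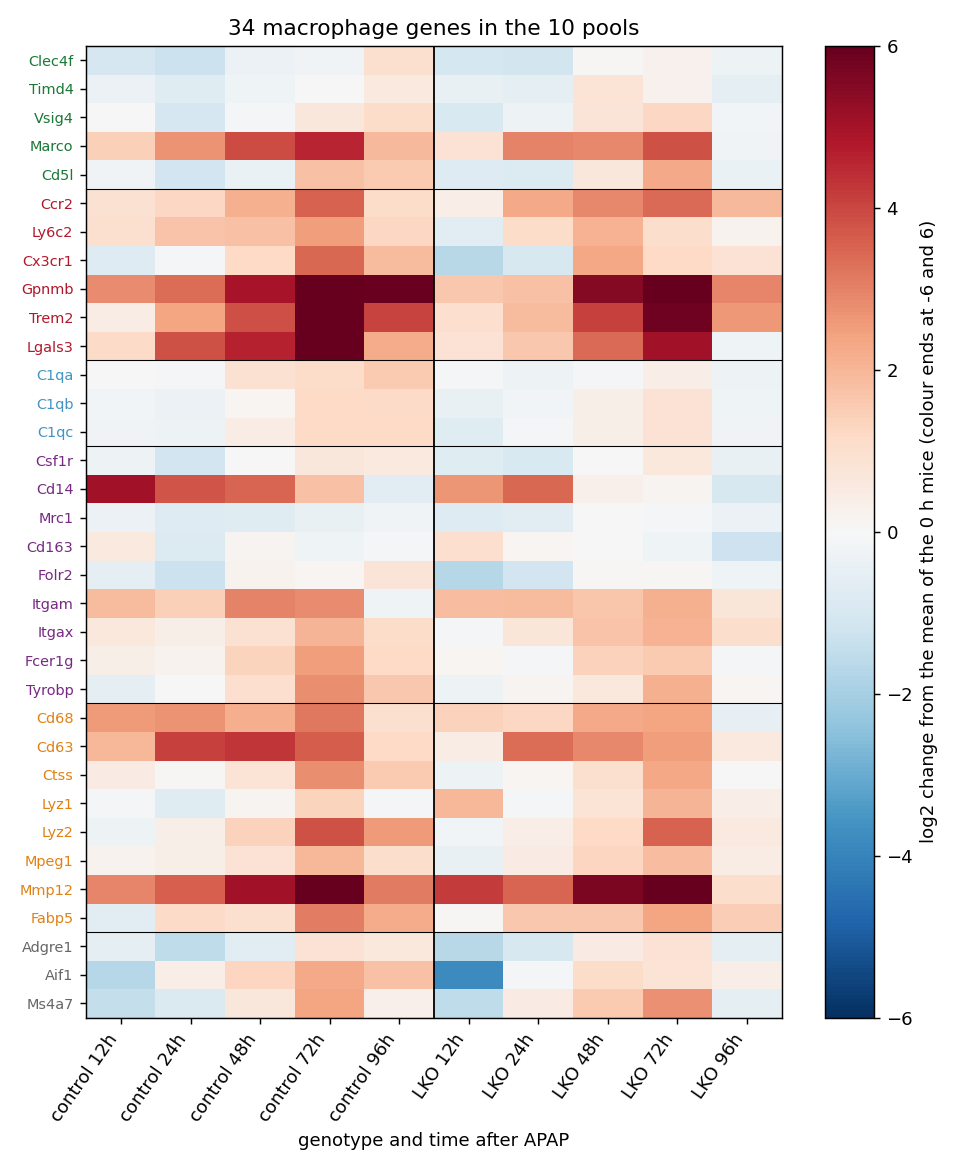
Colour gives the log2 change of each of the 34 macrophage genes (rows) from the mean of the 0 h mice of the same genotype in each of the 10 APAP pools (columns), with the scale ending at −6 and 6. *Gpnmb*, *Trem2*, *Lgals3* and *Mmp12* are darkest at 72 h in both genotypes, and most members are paler in the LKO than in the control pool at 96 h.

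Among the resident markers, *Clec4f* was lower early and *Marco* was higher for longer. *Clec4f*, a lectin that in mice is a defining Kupffer cell marker, stood at 69.9, 78.3, 106 and 60.01 CPM in the 4 control mice at 0 h and at 168, 66.5, 67.4 and 83.2 CPM in the 4 LKO mice. Its level in control pools was 37.7, 31.4, 60.5, 65.9 and 151 CPM from 12 to 96 h. In LKO pools it was 43.5, 41.3, 94.1, 105 and 71.1 CPM. In both genotypes the pools at 12 and 24 h lay below every 0 h mouse of the same genotype, and the fitted log2 fold change was −1.07 (SE 0.37, adjusted p = 0.0321) at 12 h and −1.28 (SE 0.37, adjusted p = 0.0176) at 24 h by edgeR. At 48, 72 and 96 h *Clec4f* passed no test.

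*Timd4*, which binds phosphatidylserine on dying cells, was low throughout and passed no test against 0 h. It ranged over 2.83 to 6.23 CPM in control mice and 2.61 to 5.51 CPM in LKO mice at 0 h. Control pools stood at 2.86, 2.18, 3.09, 3.67 and 5.53 CPM, and LKO pools at 2.64, 2.38, 6.50, 4.31 and 2.36 CPM, so that most pools lay within the span of the 0 h mice. *Vsig4*, a receptor for complement C3 fragments, stood at 10.6 to 22.2 CPM in control and 11.5 to 24.9 CPM in LKO mice at 0 h. Its control pools read 14.2, 6.90, 12.8, 22.4 and 29.8 CPM and its LKO pools 8.03, 12.5, 26.2, 36.5 and 13.5 CPM. Only the LKO pools at 48 and 72 h and the control pools at 72 and 96 h lay above the 0 h mice of their genotype, and its largest fitted change, 0.93 at 72 h (SE 0.37, adjusted p = 0.0879, edgeR), did not pass.

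*Cd5l*, a secreted scavenger protein also known as AIM, lay within or below its 0 h range early and was far above it at 72 h. Mice at 0 h gave 48.0, 46.6, 52.4 and 38.5 CPM in control and 103, 43.5, 43.5 and 49.6 CPM in LKO. Control pools gave 39.9, 20.5, 34.6, 157 and 136 CPM and LKO pools 32.7, 31.4, 89.9, 266 and 41.8 CPM. At 72 h the fitted change was 1.97 and passed the test. *Marco*, a scavenger receptor for particles and bacteria, was the resident marker that rose most. It stood at 1.77, 1.86, 1.18 and 2.65 CPM in control and 3.99, 1.03, 3.86 and 3.08 CPM in LKO mice at 0 h, at 5.07, 12.4, 29.1, 45.2 and 7.16 CPM in control pools and at 4.93, 21.9, 20.5, 39.3 and 2.30 CPM in LKO pools. Every pool except the LKO pool at 96 h exceeded all 0 h mice of its genotype, and the fitted log2 fold change was 2.80 (SE 0.38, adjusted p = 0.000116) at 24 h, 3.35 at 48 h and 4.12 (SE 0.37, adjusted p = 7.16e-07) at 72 h by edgeR.

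The recruited and lipid-phagocyte markers climbed from very low levels and were highest at 72 h in most cases. *Gpnmb*, a transmembrane glycoprotein of lysosome-rich phagocytes, was close to absent at 0 h, with 0.0590, 0, 0.0842 and 0.246 CPM in control and 0, 0.0544, 0 and 0.220 CPM in LKO mice. Control pools then gave 1.30, 1.94, 6.18, 105 and 12.3 CPM and LKO pools 0.411, 0.466, 7.75, 118 and 1.21 CPM. All 10 pools exceeded every 0 h mouse of their genotype. At 72 h the control pool held 1608 reads against 6 in the 4 control mice together, a ratio of CPM of 1035 (exact 95% interval 475 to 2826, counting error only), and the LKO pool held 2472 against 5, a ratio of 1619 (693 to 4990). The fitted log2 fold change by edgeR was 3.15 for 12 h (SE 0.89, adjusted p = 0.0121), 3.55 for 24 h (SE 0.82, adjusted p = 0.00445) and 6.37 for 48 h (SE 0.63, adjusted p = 5.05e-06). It reached 10.37 for 72 h (SE 0.56, adjusted p = 3.93e-09) and was 5.87 for 96 h (SE 0.65, adjusted p = 0.000531), but depends on the prior count for a gene this low in uninjured liver.

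*Trem2*, a lipid-sensing receptor that signals through *Tyrobp*, showed the same order of times. It stood at 0.118, 0.286, 0.0842 and 0.185 CPM in control and 0.207, 0.0544, 0.173 and 0.330 CPM in LKO mice at 0 h, at 0.260, 1.33, 3.90, 22.0 and 4.46 CPM in control pools and at 0.469, 0.984, 4.98, 16.5 and 1.64 CPM in LKO pools. From 24 h on every pool lay above every 0 h mouse. The fitted change reached 4.57 (SE 0.38, adjusted p = 1.03e-06) at 48 h, 6.66 (SE 0.36, adjusted p = 3.93e-09) at 72 h and 3.95 (SE 0.40, adjusted p = 0.000266) at 96 h by edgeR. *Lgals3*, which encodes galectin-3, a lectin recruited to damaged lysosomes, stood at 1.24 to 3.72 CPM in control and 2.25 to 4.27 CPM in LKO mice. Its control pools gave 5.33, 33.6, 60.2, 203 and 11.2 CPM and its LKO pools 5.22, 8.96, 31.4, 98.4 and 2.36 CPM. The LKO pool was the lower of the 2 at each of the 5 times, and at 96 h it had come back within the 0 h range while the control pool had not.

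The monocyte receptors rose less steeply. *Ccr2*, the receptor for CCL2 on inflammatory monocytes, stood at 0.826, 0.859, 1.09 and 1.11 CPM in control and at 0.620, 0.544, 0.634 and 0.550 CPM in LKO mice at 0 h. Control pools gave 1.95, 2.48, 4.66, 12.4 and 2.20 CPM and LKO pools 0.821, 3.26, 5.15, 7.22 and 2.58 CPM, all above the 0 h mice of their genotype. *Ccr2* rose at 24, 48 and 72 h, by 1.94, 2.69 and 3.64 on the log2 scale. At 96 h the fitted change was 1.65 (SE 0.31, adjusted p = 0.0360, edgeR), and this call was kept in 9 of 16 alternatives (1.16 to 2.10, adjusted p up to 0.176). *Ly6c2*, a surface marker of the same monocytes, gave 0.845, 1.51, 1.57, 2.68 and 1.06 CPM in control pools and 0.352, 1.45, 2.94, 1.39 and 0.713 CPM in LKO pools, against 0.0842 to 0.788 CPM in control and 0.344 to 0.880 CPM in LKO mice at 0 h. It passed the test at 24, 48 and 72 h, but shares near-identical sequence with *Ly6c1*, so its count is uncertain. *Cx3cr1*, the fractalkine receptor, was below its 0 h range in both 12 h pools (0.325 and 0.234 CPM) and in the LKO pool at 24 h (0.466 CPM). It reached 8.38 CPM at 72 h in control and 5.60 CPM at 48 h in LKO pools, and passed the test at 48 and 72 h.

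**Figure D2:**
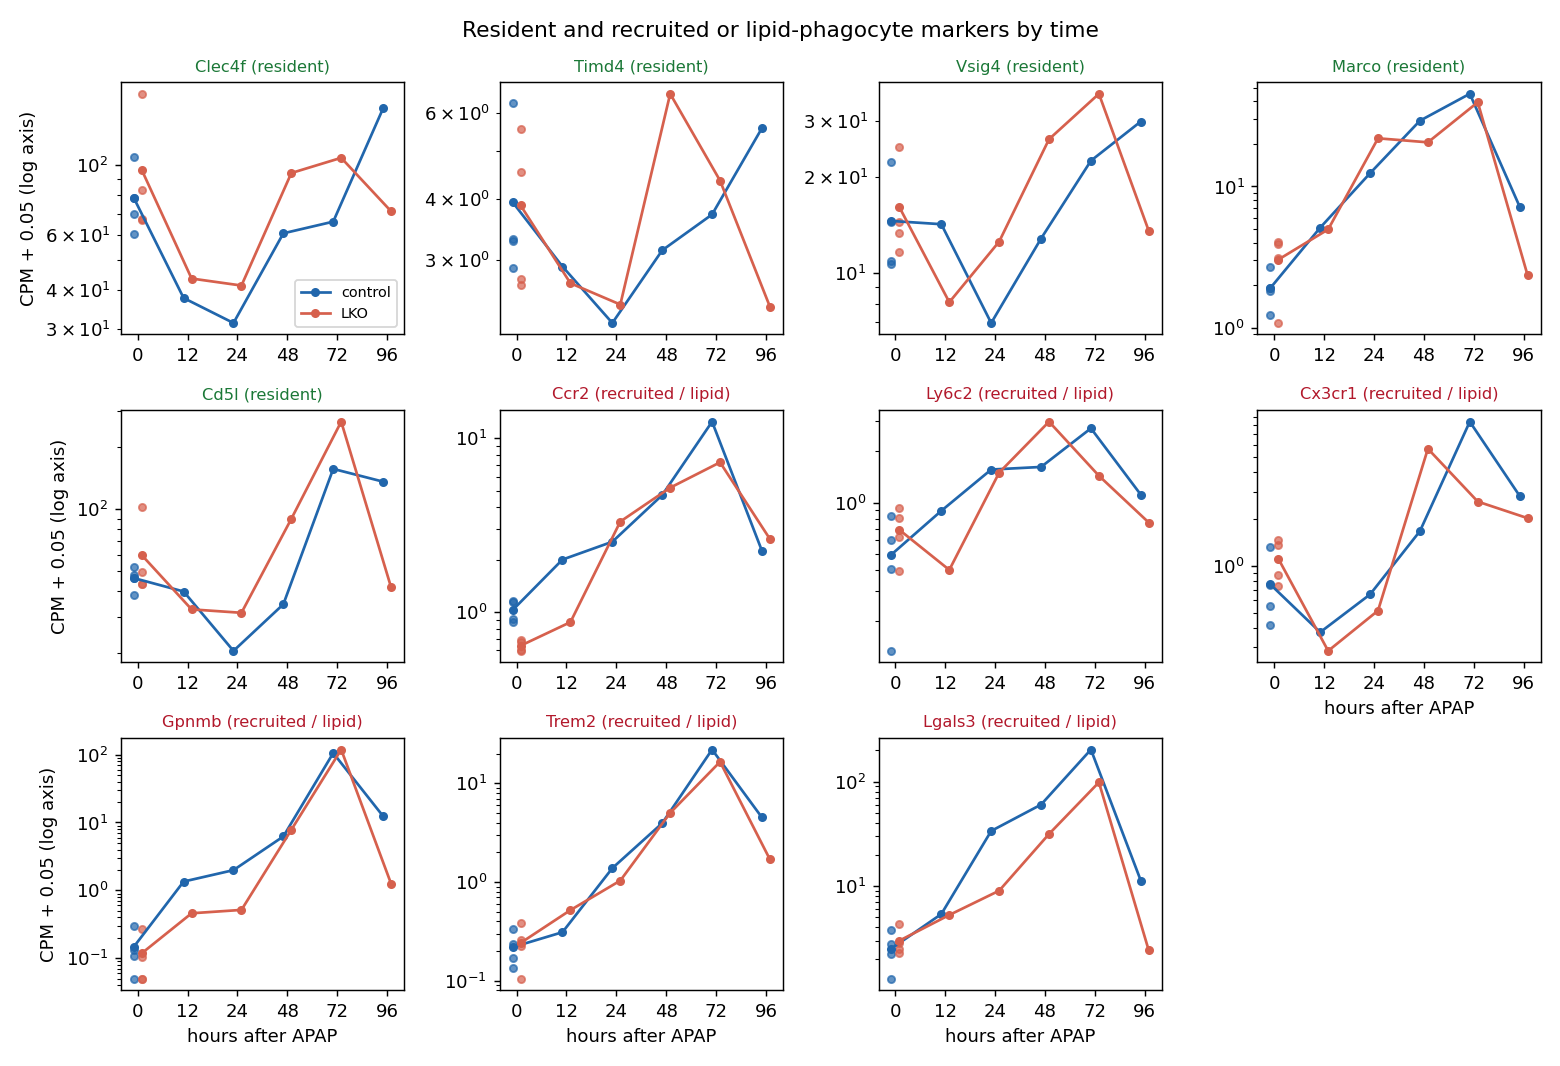
Each panel gives 1 marker as CPM plus 0.05 on a log axis against hours after APAP, with single points for the 4 mice per genotype at 0 h, and lines through their mean and the 1 pool per genotype at each later time (blue control, red LKO). *Gpnmb*, *Trem2* and *Lgals3* reach their highest level at 72 h in both genotypes, whereas *Clec4f* is at its lowest at 24 h.

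Summed over the 5 resident genes, the level was 115 to 188 CPM in control mice at 0 h, and 99.7, 73.3, 140, 294 and 330 CPM in control pools from 12 to 96 h. LKO mice gave 125 to 306 CPM at 0 h, and LKO pools 91.7, 109, 237, 451 and 131 CPM. The resident sum was thus lowest at 24 h in control and at 12 h in LKO pools, and highest at 96 h in control and at 72 h in LKO pools. At 72 h *Cd5l* alone gave 157 of the 294 CPM in the control pool and 266 of the 451 CPM in the LKO pool. *Clec4f* stood at 65.9 and 105 CPM there, within the 0 h mice of its genotype. The 6 recruited and lipid-phagocyte genes summed to 3.31 to 6.85 CPM over all 14 mice at 0 h. Control pools gave 10.0, 41.5, 78.1, 354 and 34.01 CPM and LKO pools 7.51, 15.6, 57.8, 244 and 10.5 CPM. *Lgals3* made up 22.5 to 81.0% of this sum. It was lower in the LKO pool at each of the 5 times, but the other 5 genes together stood at 4.68, 7.87, 17.9, 151 and 22.8 CPM in control and at 2.29, 6.63, 26.4, 146 and 8.12 CPM in LKO pools. At 48 h, 5 of the 6 recruited genes were higher in the LKO pool, with a median difference of 0.33 on the log2 scale. The ratio of the recruited to the resident sum was 0.0205 to 0.0690 at 0 h. It was 0.100, 0.566, 0.558, 1.20 and 0.103 in control pools and 0.0818, 0.142, 0.244, 0.542 and 0.0799 in LKO pools. Without *Lgals3* the ratio was 0.0469, 0.107, 0.128, 0.513 and 0.0692 in control and 0.0249, 0.0606, 0.111, 0.324 and 0.0619 in LKO pools. No ratio without *Lgals3* was taken for the 0 h mice. These genes differ in length, so the ratio is read only between libraries and not as a ratio of cells, and with 1 pool per genotype and time the differences have no replicate check.

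**Figure D3:**
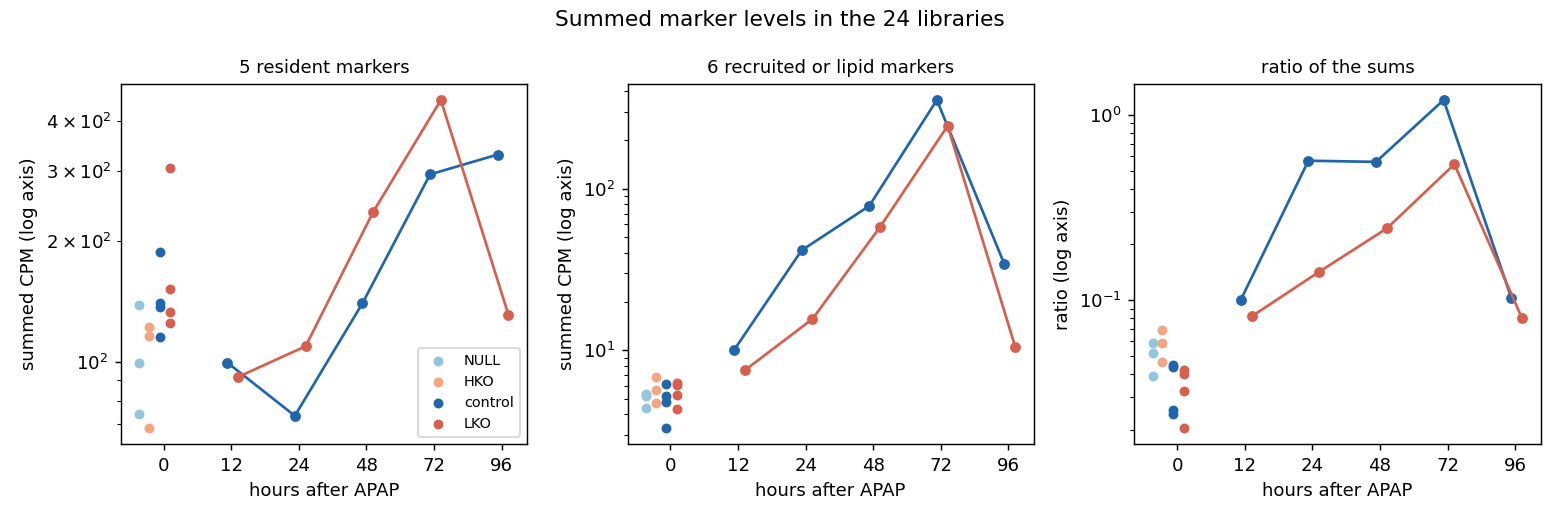
The panels give the summed CPM of the 5 resident markers, the summed CPM of the 6 recruited or lipid markers and their ratio, each on a log axis, against hours after APAP, with 1 point per library and lines through the pools. With *Lgals3* included, the ratio is above every 0 h mouse in all 10 pools, reaches 1.20 in the control pool at 72 h and returns to 0.103 and 0.0799 at 96 h.

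Complement C1q, whose A, B and C chains are made in the liver mainly by macrophages, passed no test before 72 h. *C1qa*, *C1qb* and *C1qc* stood at 20.7 to 45.3 CPM in control and 21.5 to 72.9 CPM in LKO mice at 0 h. At 72 h control pools gave 69.2, 79.4 and 69.4 CPM and LKO pools 53.9, 66.6 and 64.0 CPM, and *C1qb* and *C1qc* rose by 0.98 and 1.00 on the log2 scale. At 96 h the control pool gave 95.3, 76.7 and 69.4 CPM and the LKO pool 32.9, 30.6 and 30.2 CPM, where *C1qb* lay just below the lowest LKO mouse at 0 h (30.9 CPM) and the other chains within the range of the LKO mice.

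The receptors and adaptors did not move as one. *Cd14*, the coreceptor for lipopolysaccharide, was highest first: it stood at 2.48 to 7.32 CPM in control and 2.30 to 4.82 CPM in LKO mice at 0 h, and at 146, 60.1, 49.4, 14.8 and 2.62 CPM in control pools against 20.8, 36.05, 3.96, 3.64 and 1.59 CPM in LKO pools. It rose by 3.99 (SE 0.48, adjusted p = 2.20e-05) at 12 h and 3.55 (SE 0.47, adjusted p = 9.53e-05) at 24 h on the log2 scale by edgeR, and also at 48 h, but not at 72 or 96 h. The call at 48 h rests on the control pool, since the change there was 3.50 in the control and 0.28 in the LKO pool, which lay within the LKO mice at 0 h. *Itgam*, the alpha chain of the complement receptor CR3 on monocytes and neutrophils, rose at 12, 24, 48 and 72 h, by 1.92 (SE 0.43, adjusted p = 0.00287, edgeR) at 12 h. Its exons share 68.7% of their bases with a gene model on the same strand, so that reads may have been lost as ambiguous.

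The receptor genes *Folr2*, *Csf1r*, *Adgre1* and *Mrc1* fell in the first day. *Folr2*, a folate receptor, fell by 1.20 (SE 0.44, adjusted p = 0.0433) at 12 h and 1.35 (SE 0.44, adjusted p = 0.0300) at 24 h on the log2 scale by edgeR. The call at 12 h was kept in 10 of 17 alternatives (−1.90 to −0.64, adjusted p up to 0.468), and the change there was −0.59 in the control and −1.73 in the LKO pool. Its exons share 63.1% of their bases with a gene model on the opposite strand, and the counts ignore strand, so that reads may have been lost as ambiguous. *Csf1r*, the receptor for the macrophage growth factor CSF1, had a log2 fold change of −1.08 (SE 0.30, adjusted p = 0.0129) at 24 h, *Adgre1*, which encodes F4/80, of −1.30 (SE 0.42, adjusted p = 0.0291), and *Mrc1*, the mannose receptor, of −0.75 (SE 0.20, adjusted p = 0.00989). *Mrc1* is also expressed by sinusoidal endothelium. *Csf1r* stood at 26.5 to 40.1 CPM in control mice and 14.5 CPM in the 24 h control pool, and at 31.4 to 68.4 CPM in LKO mice and 21.6 CPM in the 24 h LKO pool. *Cd163*, the haemoglobin scavenger receptor, passed no test at any time, while *Itgax* (CD11c) and the signalling adaptors *Fcer1g* and *Tyrobp* rose at 72 h by 2.17, 2.04 and 2.47 on the log2 scale.

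Of the 8 lysosomal and effector genes, all 7 that could be tested rose at 72 h, by 1.86 to 7.48 on the log2 scale. *Mmp12*, macrophage elastase, rose at each time to 72 h, with fitted changes by edgeR of 4.13 for 12 h (SE 0.63, adjusted p = 0.000152), 3.93 for 24 h (SE 0.63, adjusted p = 0.000381), 5.81 for 48 h (SE 0.57, adjusted p = 4.50e-06) and 7.48 for 72 h (SE 0.55, adjusted p = 9.07e-08). Its pools read 1.75, 2.91, 8.10, 39.9 and 2.05 CPM in control and 4.69, 2.90, 13.2, 28.3 and 0.439 CPM in LKO, against 0 to 0.758 CPM in the 8 mice at 0 h. *Cd63*, a tetraspanin of late endosomes, rose by 1.30 (SE 0.32, adjusted p = 0.00485) at 12 h, 3.70 (SE 0.28, adjusted p = 7.38e-07) at 24 h and 3.60 (SE 0.29, adjusted p = 6.72e-07) at 48 h by edgeR. The change at 12 h was 2.01 in the control and 0.47 in the LKO pool, and the fitted change with the LKO pool alone was 0.44. *Cd68*, a lysosomal glycoprotein, rose at the first 4 times, by 2.03 (SE 0.28, adjusted p = 5.86e-05, edgeR) at 12 h.

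*Lyz2*, the lysozyme of myeloid cells, went from 21.8 to 35.2 CPM in control and 17.9 to 51.0 CPM in LKO mice at 0 h to 366 and 336 CPM in the control and LKO pools at 72 h. At 96 h the pools stood at 151 and 42.9 CPM, and the fitted change was 1.73 (SE 0.34, adjusted p = 0.0373, edgeR). The LKO pool lay within the LKO mice at 0 h, and the call was kept in 11 of 17 alternatives, over which the change was 0.46 (LKO pool alone) to 2.51 and the adjusted p reached 0.895. *Lyz1*, its paralog, had 0 to 0.431 CPM in the 18 libraries of the time course and was not tested. The protease gene *Ctss*, the pore-forming *Mpeg1* and the fatty acid carrier *Fabp5* rose at 72 h by 2.49, 1.86 and 2.41 on the log2 scale. Of the 3 general macrophage genes, *Aif1* (IBA1) fell at 12 h by 3.06 (SE 0.58, adjusted p = 0.000844, edgeR) and rose by 1.16 at 48 h and 1.54 at 72 h, on the log2 scale. *Ms4a7*, a tetraspan gene, was called lower at 12 h, where both pools held 0 reads against 1 to 6 in each 0 h mouse, too few to give a fold, and rose at 72 h, when the pools stood at 1.57 and 2.15 CPM against 0.0590 to 0.505 CPM in the 8 mice.

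By highest pool, 24 of the 34 members peaked at 72 h in control and 26 in LKO. Among the 33 tested these were 69.7% and 75.8%, where 20.1% and 16.7% of all 13855 genes peaked at that time. In control pools 6 members were highest at 96 h (18.2% of those tested, below the 26.0% of all genes), among them *Clec4f* at 151 CPM and *C1qa* at 95.3 CPM, while 0 members were highest at 96 h in LKO pools, against 16.4% of all genes. Of the 33 members tested, 29 had their lowest pool at 12 or 24 h in control (87.9%, against 44.7% of all genes) and 25 in LKO (75.8%, against 54.7%).

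Many further genes linked to these cells also rose at 72 h, where 11.0% of all genes were called higher. Of 12 further Kupffer cell genes, 8 rose, including *Hmox1*, heme oxygenase (2.38, SE 0.27, adjusted p = 9.92e-06), and *Spic*, a transcription factor of iron-recycling macrophages (2.32, SE 0.50, adjusted p = 0.00384). Of 11 further monocyte genes, 10 rose, led by *Chil3*, a chitinase-like protein (6.48, SE 0.59, adjusted p = 8.86e-07), and *F13a1*, coagulation factor XIII A (5.17, SE 0.72, adjusted p = 7.37e-05). Of 12 lipid-phagocyte and lysosome genes tested, 7 rose, with *Lpl*, lipoprotein lipase, at 2.30 (SE 0.27, adjusted p = 1.23e-05) and *Atp6v0d2*, a proton pump subunit, at 2.42 (SE 0.76, adjusted p = 0.0359), all by edgeR. The call for *Atp6v0d2* was kept in 8 of 16 alternatives (adjusted p up to 0.287). Of 20 general phagocyte genes, 13 rose, among them the integrin chain *Itgb2* (2.39, SE 0.25, adjusted p = 3.97e-06) and the tetraspanin *Cd53* (2.27, SE 0.33, adjusted p = 0.000108). Among ligands, 3 of 5 tested rose: *Ccl7* (5.72, SE 0.94, adjusted p = 0.000476) and *Ccl2* (3.44, SE 0.58, adjusted p = 0.000498), both chemokines for *Ccr2*, and the growth factor *Csf1* (0.81, SE 0.20, adjusted p = 0.0108), by edgeR. With the LKO pool alone the fitted change was lower, at 2.51 for *Ccl7*, 1.49 for *Ccl2*, 0.49 for *Csf1* and 1.14 for *Spic*. A fit with 1 pool has no spread of its own, so a rise in LKO livers by themselves could not be tested. The ligands summed to 46.1 CPM in the control and 16.5 CPM in the LKO pool. Of the 9 engulfment receptor genes, 2 rose and 1 fell. Not every list had its highest sum at 72 h. In control and LKO pools the further Kupffer sum was highest at 12 h (1212 and 690 CPM). The lipid-phagocyte and lysosome sum was highest at 24 h (6166 and 5196 CPM). That of the monocyte genes was highest at 72 h in control (146 CPM) and at 48 h in LKO (48.2 CPM). General phagocyte genes were highest at 72 h in both (393 and 337 CPM).

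Markers of other cells moved at the same times. Of 11 neutrophil markers 10 were counted and 6 tested, of which 4, 4, 3 and 2 rose at 12, 24, 48 and 72 h, and their sum was 17.5, 14.9, 33.5, 28.2 and 9.21 CPM in control pools and 18.3, 33.6, 10.6, 9.28 and 2.63 CPM in LKO pools, against 2.71 to 12.4 CPM in the 8 mice at 0 h. *Ly6g* was not analysed here, and *Mpo*, a defining granule gene, was at 0 in 6 of the 10 pools. At 24 h, beside the lower *Folr2*, *Csf1r*, *Adgre1* and *Mrc1*, 4 of 8 endothelial markers fell and 1 rose, and 3 of 8 hepatocyte markers fell and 1 rose. Of 8 stellate cell markers 6 rose at 72 h, when their sum was 877 and 579 CPM against 165 to 298 CPM at 0 h. Of 8 lymphocyte markers tested 0 passed at 72 h by edgeR (0 also at an unadjusted p under 0.05), and their sum was 1.56 to 10.2 CPM in control and 4.25 to 9.33 CPM in LKO pools, and of 6 dendritic cell markers 3 rose. All 8 cell cycle genes, which mark dividing cells of any type, rose at 48 h (median log2 fold change 4.12) and 72 h (median 5.06), by more than the median member at both times. *Cd14*, *Itgam*, *Lgals3* and *Cd63* are expressed by more than one of these cell types, and the part of other cells in the changes of the members was not tested.

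Before APAP, no difference between genotypes was called among the macrophage genes. Between HKO and NULL mice, 0 of 27 members tested were called, where 119 of 12397 genes (0.96%) were, and 1 member, *Mpeg1*, had an unadjusted p under 0.05 (adjusted p = 0.384, edgeR), which is 3.7% against 12.9% of all genes. Between LKO and control mice at 0 h, 0 of 28 members and 0 of 12426 genes (0.0%) were called, with 1 member and 352 genes at an unadjusted p under 0.05, and DESeq2 also called no member in either comparison. That member was *Ccr2*, whose 4 LKO mice (0.544 to 0.634 CPM) lay below the 4 control mice (0.826 to 1.11 CPM), with a log2 fold change of −0.72 (SE 0.31, adjusted p = 0.999, edgeR). The median log2 fold change of the members was 0.27 in LKO against control mice and 0.00 in HKO against NULL mice.

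Over the 5 times after APAP, with time as a block, 1 of 32 members tested differed between the pools labelled LKO and control. This was *Cd63*, which was lower in LKO at all 5 times: control pools gave 21.8, 94.2, 108, 67.8 and 12.3 CPM and LKO pools 6.57, 50.1, 35.1, 27.3 and 7.18 CPM. Its log2 fold change was −1.29 (SE 0.17, adjusted p = 0.0237, edgeR). Of 12782 genes, 74 (0.579%) were called, and 42 (0.329%) were lower in LKO. The call for *Cd63* was lost when the 12, 24, 48 or 72 h pair was left out, with adjusted p of 0.0694, 0.0502, 0.0795 and 0.0667 in turn, and without the time block (adjusted p = 0.764), all by edgeR. Its log2 fold change stayed between −1.40 and −1.18 over all 13 alternatives. DESeq2, which called 606 genes in all, called 4 members lower, namely *Cd63*, *Cd68*, *Lgals3* and *Cd14*.

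The other members nearest the threshold were *Cd14* and *Lgals3*, both also lower in the LKO pool at every time. *Cd14* had a log2 fold change of −2.07 (SE 0.40, adjusted p = 0.0536) and *Lgals3* of −1.25 (SE 0.27, adjusted p = 0.0697), and neither passed by edgeR. *Cd68* was lower in LKO at 4 of 5 times, at −0.86 (SE 0.23, adjusted p = 0.109, edgeR). For *Cd14* the gap between pools was widest at 12 h (146 against 20.8 CPM) and 48 h (49.4 against 3.96 CPM). The neutrophil sum differed at 48 h as well (33.5 against 10.6 CPM) but not at 12 h (17.5 against 18.3 CPM), and its part in these differences was not tested.

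None of the 5 resident markers passed over 12 to 96 h. By edgeR their log2 fold changes, LKO against control, were 0.15 for *Clec4f* (SE 0.24, adjusted p = 0.777), 0.01 for *Timd4* (SE 0.33, adjusted p = 0.990), 0.12 for *Vsig4* (SE 0.33, adjusted p = 0.885), −0.29 for *Marco* (SE 0.28, adjusted p = 0.625) and 0.16 for *Cd5l* (SE 0.37, adjusted p = 0.854). The other recruited markers were each below 0 without passing. *Gpnmb* had −1.02 (SE 0.49, adjusted p = 0.310), *Trem2* −0.36 (SE 0.31, adjusted p = 0.587), *Ccr2* −0.24 (SE 0.30, adjusted p = 0.702), *Ly6c2* −0.34 (SE 0.40, adjusted p = 0.693) and *Cx3cr1* −0.27 (SE 0.50, adjusted p = 0.815), by edgeR. The signs of *Timd4*, *Vsig4*, *Cd5l* and *Cx3cr1* each changed when single time pairs were left out. The median over the 32 members was −0.25, against −0.01 over all genes tested. Of 12 further Kupffer cell genes, *Id3*, a regulator of Kupffer cell identity (−1.15, SE 0.21, adjusted p = 0.0458), and *Hmox1* (−1.21, SE 0.22, adjusted p = 0.0484) were called lower in LKO by edgeR. Both genes are also expressed by other liver cells, and each call was kept in 5 of 13 alternatives, over which the log2 fold change was −1.32 to −0.95 for *Id3* and −1.48 to −1.02 for *Hmox1*. Among others, both were lost with library size in place of TMM scaling, with 10 or more counts in every library, without the time block and without the 12, 24, 48 or 72 h pair.

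The genotype difference was also estimated separately for early and late times. At 12 to 48 h, *Cd63* (log2 fold change −1.43, SE 0.21, adjusted p = 0.0184) and *Cd14* (−2.39, SE 0.48, adjusted p = 0.0490) were lower in LKO by edgeR, where 1.13% of all genes were called and 1.06% were called lower, and the median member stood at 0.13. Both calls were lost when the 12 h or the 48 h pair was left out, and that of *Cd14* also with RLE scaling (adjusted p = 0.0521, edgeR) or library size in place of TMM scaling. At 72 to 96 h no member was called by edgeR, where 0.642% of all genes were called, but 14 of 32 (43.8%) had an unadjusted p under 0.05, against 13.2% of all genes, and the median member stood at −0.79 against −0.02 over all genes. DESeq2 called 3 members at 72 to 96 h, and 301 genes in all. The lowest adjusted p there was that of *Fabp5*, at −0.996 (SE 0.21, adjusted p = 0.0774), followed by *Cd63* at −1.09 (SE 0.26, adjusted p = 0.125) and *Lgals3* at −1.57 (SE 0.41, adjusted p = 0.152). The late difference minus the early one was called for 0 of 32 members by edgeR (19 genes, 0.149%, in all). It had an unadjusted p under 0.05 for 6 members (18.8%), against 10.5% of all genes. With DESeq2 it was called for 1 member, and for 172 genes in all. It was −1.34 for *Fabp5* (SE 0.27, adjusted p = 0.102, edgeR), which DESeq2 called at an adjusted p of 0.0146, and the median member stood at −0.78 against −0.01. Each of these terms rests on 2 or 3 pools per genotype.

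**Figure D4:**
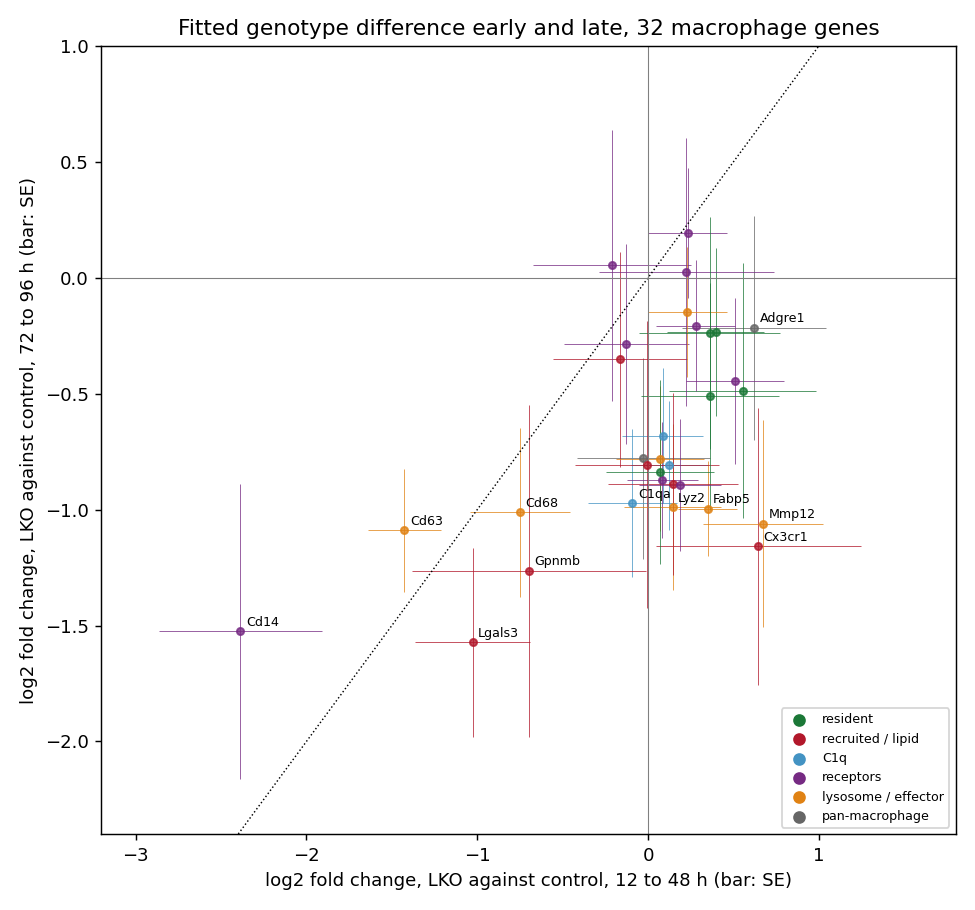
Each point is 1 of the 32 macrophage genes tested, with the fitted log2 fold change of LKO against control at 12 to 48 h on the x axis and at 72 to 96 h on the y axis, bars giving the SE and the dotted line equality. Most points lie below 0 on the y axis and near 0 on the x axis, with *Cd14*, *Cd63*, *Lgals3*, *Cd68* and *Gpnmb* below 0 on both.

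Pool by pool, the members differed most at 96 h. There the LKO pool was lower than the control pool for 30 of the 33 members tested over time (90.9%), against 48.6% of all 13855 genes, and at least 2-fold lower for 18 of them (54.5%), against 4.60%. The median difference was −1.03 on the log2 scale for members and 0.01 for all genes. At 12, 24, 48 and 72 h the LKO pool was lower for 22, 10, 9 and 20 of the 33, with medians of −0.29, 0.28, 0.34 and −0.23. These are 66.7, 30.3, 27.3 and 60.6% of the members, against 50.4, 47.9, 49.8 and 48.1% of all genes. All 5 resident markers were lower in LKO at 96 h, by more than 1 on the log2 scale: −1.09 for *Clec4f*, −1.19 for *Timd4*, −1.14 for *Vsig4*, −1.59 for *Marco* and −1.70 for *Cd5l*. The widest gaps were in *Gpnmb* (12.3 against 1.21 CPM), *Lgals3* (11.2 against 2.36 CPM), *Mmp12* (2.05 against 0.439 CPM) and *Lyz2* (151 against 42.9 CPM).

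The exceptions at 96 h were *Itgam* (0.638 CPM in control and 1.48 CPM in LKO), *Ccr2* (2.20 and 2.58 CPM) and *Itgax* (1.20 and 1.21 CPM). With library size in place of TMM scaling the median of all genes shifted to 0.21 and that of the members to −0.83, which is −1.04 relative to all genes. Beside this, the sum of hepatocyte markers was 110421 CPM in the control and 93232 CPM in the LKO pool at 96 h, that of endothelial markers 254 and 270 CPM, and that of stellate cell markers 302 and 320 CPM. Lower in LKO were 7 of 8 hepatocyte markers (median difference −0.32), 7 of 10 neutrophil markers (sum 9.21 against 2.63 CPM, median difference −0.74), 7 of 10 lymphocyte markers (10.2 against 5.59 CPM, median difference −0.76) and 4 of 7 dendritic cell markers (median difference −0.03). Of 8 cell cycle genes, 1 was lower and 4 were at least 2-fold higher in LKO (median difference 0.89). The part of these cells in the difference was not tested. At 96 h, 22 of the 33 members were at least 2-fold above the 0 h mean in the control pool (66.7%, against 6.70% of all genes) and 6 in the LKO pool (18.2%, against 4.30%). These are differences between 2 pools of 3 mice, with no replicate check.

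**Figure D5:**
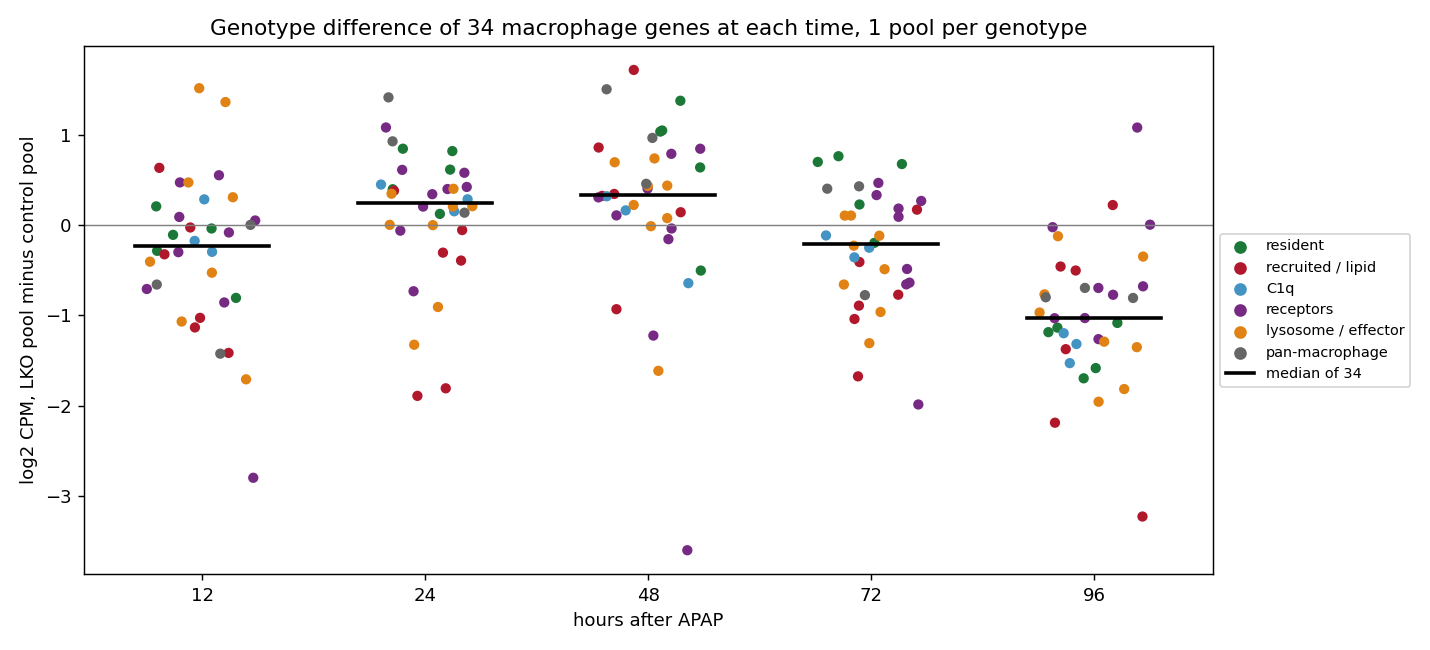
Each point is 1 of the 34 macrophage genes, with log2 CPM in the LKO pool minus that in the control pool on the y axis and hours after APAP on the x axis, and black bars give the median. The median is −0.23, 0.24, 0.33, −0.21 and −1.03 at 12, 24, 48, 72 and 96 h.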

How the data were processed

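Whole-liver RNA of 24 libraries was sequenced by the authors and aligned to mm10 with STAR, as the submitters' processing notes and the study's methods state. The annotation is not given in the sources used here. The deposited files hold raw read counts per gene from STAR, and the unstranded count column was used. STAR's 4 summary entries were dropped (reads in no gene were 7.30 to 14.7% of the total of reads on genes and these 4 entries). The stranded column held 51.1 to 51.8% of the unstranded one, as in a library that does not mark strand.

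Counts were tested with edgeR 4.0.16 in R 4.3.3 (filterByExpr, TMM scaling, quasi-likelihood F-test, Benjamini-Hochberg over all genes tested) and called at a fold change of 1.5 or more with an adjusted p under 0.05. SE is the log2 fold change divided by the square root of F. HKO against NULL and LKO against control at 0 h were fitted on their own libraries. LKO against control after APAP was fitted on the 10 pools with time as a block, and split into 12 to 48 h and 72 to 96 h terms, the separate terms being added after the data were seen. Each time was compared with 0 h on 18 libraries with genotype in the model. Levels are CPM with TMM scaling over 24 libraries, and log2 levels use a prior count of 2.

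Depth was 12665686 to 19499897 reads on genes per library. Intervals are exact, at 95%, and cover counting error only. Replicates at 0 h are separate mice. At later times each library pools 3 mice, so p-values measure the spread between pools and mice as modelled.

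All 34 members are named: the 11 markers in full, called members with their statistics where at most 10 were called and otherwise the 5 largest in each direction, and 2 to 4 examples of other lists. Other genes and members were named after their values were seen where a count turned on them. Members and lists were chosen with earlier results of these data known. Gene positions came from GENCODE on GRCm38 and promoters from RefSeq on GRCm38.p6.

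Alternatives were DESeq2 1.42.0, RLE scaling, library size alone, a filter of 1 count in all, a filter of 10 counts or more in each library, the stranded column, a prior count of 0.5, no limit on fold, a replicate or time block and leaving out each replicate. The test code was checked on simulated data.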

Additional observations from a re-analysis of the deposited data

Results flagged for a closer look

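In 10 of 50 sets of 4 mice at 0 h, 1 mouse lay far enough from the other 3 for Dixon's ratio to pass its 95% critical value, where chance gives about 1 in 20. Of these, 6 concern LKO mouse 1, which had the highest CPM of its group: 168 for *Clec4f* (the others 66.5 to 83.2), 103 for *Cd5l* (43.5 to 49.6), 57.8 for *C1qb* (30.9 to 33.8), 68.4 for *Csf1r* (31.4 to 37.3), 38.6 for *Cd163* (10.8 to 14.2) and 25.9 for *Fabp5* (4.38 to 6.60). Control mouse 3 was highest for *Timd4* at 6.23 CPM (2.83 to 3.26), for *C1qb* at 45.3 CPM (30.5 to 32.9) and for *Adgre1* at 10.4 CPM (7.20 to 7.59). LKO mouse 3 was lowest for *Cd63* at 2.88 CPM (5.44 to 5.66). These genes share libraries, so the flags are not independent of each other, and no member was called between LKO and control at 0 h with or without LKO mouse 1.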

How the results depend on the processing

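In counts of members called, 133 of 166 alternatives stayed within 1.5 times the count given, and 0 h counts were 0 in each. Over 12 to 96 h, 1 became 4 with DESeq2, 4 without the filter, 2 with the stranded column, 0 without the time block and 0 to 2 with a pair left out. The late minus early term gave 1 with DESeq2 and 1 without the filter. At 12 to 48 h, 2 became 1 with RLE scaling, 1 with library size alone and 0 to 2 with a pair left out. At 72 to 96 h, 0 became 3 with DESeq2, 3 without the filter and 0 to 1 with a pair left out. With at least 10 counts in every library, fewer members were tested and 6, 10, 9, 13 and 1 were called at 12, 24, 48, 72 and 96 h. The LKO pool alone gave 5, 8, 9, 15 and 0, and the control pool alone 10 at 24 h. Leaving out a mouse gave 9 to 13, 15 to 16, 15 to 18, 23 to 25 and 2 to 4. Other causes were not tested.

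The median change of the resident markers in control pools at 48 h moved from −0.25 to 0.0714 with library size alone. That of the recruited markers in control pools moved from 2.05 to 2.45 (prior count 0.5) and 1.41 (stranded column) at 24 h, from 2.99 to 3.33, 3.29 (library size) and 2.62 at 48 h and from 4.92 to 4.60 (stranded column) at 72 h. In LKO pools it moved from 1.69 to 2.01 and 1.19 at 24 h, and with the stranded column from 3.15 to 2.80 at 48 h and from 1.40 to 0.71 at 96 h. The sign over 12 to 96 h reversed when pairs were left out for *Cd5l* (−0.15 without 48 h, range −0.15 to 0.61), *Cx3cr1* (0.25 without 72 h, range −0.89 to 0.25), *Timd4* (−0.0061, −0.26 and −0.03 without 24, 48 and 72 h, range −0.26 to 0.32) and *Vsig4* (−0.06, −0.11 and −0.02 without the same pairs, range −0.11 to 0.45), and for *Trem2* in the stranded column (0.039). Of 68 gene values given, 29 kept direction and side of the threshold in every alternative.

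Calls over all genes rose with DESeq2 and with no filter: over 12 to 96 h from 74 to 606 and 337, at 12 to 48 h from 144 to 662 and 689, at 72 to 96 h from 82 to 301 and 275, in the late minus early term from 19 to 172 and 169, and in HKO against NULL from 119 to 331 and 255. DESeq2 also gave 338 for 64 at 96 h and 3 for 0 in LKO against control at 0 h. Over 12 to 96 h, library size gave 42, at least 10 counts in every library 34 and no time block 0. A joint fit of the 0 h mice gave 31 for HKO against NULL. Against 0 h, the LKO pool alone gave 1815, 1388, 336, 469 and 16 calls, the control pool alone 2275 at 24 h and 14 at 96 h, at least 10 counts 1519 at 72 h, and library size 41 and the stranded column 28 at 96 h. With a library pair left out the calls over 12 to 96 h were 9 to 177. Replicate numbers did not pair the mice, since deviations of same-numbered mice correlated at 0.197, −0.031 and 0.104 for HKO and NULL and at −0.379, −0.188, 0.098 and 0.222 for LKO and control. With a replicate block, HKO against NULL gave 263 calls and LKO against control 0, with 0 members in both. A level under 0.154 to 0.237 CPM rests on fewer than 3 reads, which limits *Gpnmb*, *Trem2*, *Mmp12*, *Lyz1* and *Ms4a7* at 0 h. It also limits *Ly6c2* in control mouse 3 (1 read) and NULL mouse 2 (0 reads) at 0 h.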

Other observations

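The 3 chains of complement C1q are usually expressed together, but their ratio varied between libraries. In 22 of 24 libraries *C1qa* stood at 0.809 to 1.63 times the CPM of *C1qb*. It was 0.457 in control mouse 3 and 0.696 in LKO mouse 3 at 0 h, where *C1qc* over *C1qb* was 0.576 and 0.819. Per kilobase of exon, *C1qa* (32.2 ± 9.04 CPM per kb, SD, n = 4) and *C1qb* (32.1 ± 6.39) were the highest members in control mice at 0 h, followed by *Clec4f* (31.8 ± 7.93), and these 3 did not differ beyond their spread. In the control pool at 72 h *Lyz2* (278 CPM per kb) and *Lgals3* (109 CPM per kb) were highest.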
